A study of Mus musculus with 9 samples.

Results

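The 5 NMDA receptor subunit genes Grin1, Grin2a, Grin2b, Grin2d and Grin3a were followed in cultured mouse cortical neurons with and without knockdown of Tdp-43, the RNA-binding protein encoded by Tardbp. They were taken by gene symbol, as the probe sets that the platform annotation gives to that symbol alone, and make up 5 of the 16770 genes tested. Of the 121 probe sets naming them, 117 were bright enough to be kept. Neurons came from the cortex of C57BL/6 mouse embryos on embryonic day 15. They were infected on day 5 for 4 h with lentivirus expressing a short hairpin RNA, cultured for 6 more days and harvested on day 11, and 100 ng of total RNA went onto each Affymetrix Mouse Exon 1.0 ST array. The hairpin was shTdp-43-1, shTdp-43-2 or the control hairpin shCont, with 3 arrays per hairpin. All 3 groups therefore share the strain, the culture and a lentiviral infection. Although the series text names motor neurons harvested 11 days after transfection, each sample label gives cortical neurons, and its protocol a harvest on culture day 11; the labels were followed. The labels do not say whether the arrays of a group came from separate cultures, so p-values measure only the spread between these arrays.

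NMDA receptors are glutamate-gated cation channels that open only when glutamate and a coagonist, glycine or D-serine, are bound and depolarisation has removed a magnesium block. Each channel contains the obligatory GluN1 subunit, encoded by Grin1, which binds the coagonist, together with GluN2 subunits, which bind glutamate, or GluN3 subunits. In the cortex, GluN2B (Grin2b) and GluN2D (Grin2d) are prominent before birth, GluN2A (Grin2a) increases with postnatal maturation, and GluN3A (Grin3a) marks immature synapses and lowers calcium entry.

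Tardbp itself was at 30.4% of its control level on the shTdp-43-1 arrays (-1.72 ± 0.19 SE on the log2 scale, limma adjusted p = 0.000349), and the shTdp-43-2 arrays were at 30.9% (-1.69 ± 0.19, limma adjusted p = 0.000109). The 5 measured general neuronal markers Tubb3, Map2, Snap25, Syt1 and Nefl were bright, with 9-array means of 12.32, 11.49, 11.69, 12.49 and 10.94 (log2). Of these only Nefl, a neurofilament gene, was called, lower with both hairpins (-0.60 and -0.45, limma adjusted p = 0.00227 and 0.00445). The mean over the microglial list stayed between 7.02 and 7.49 on all arrays. The mean over the astrocyte list lay between 10.45 and 10.80. Medians over the tested genes were 8.75 to 8.94 on the 9 arrays, with the lowest on shTdp-43-2 replicate 3. These are bulk samples, in which fewer cells of a type and less RNA per cell cannot be told apart.

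The obligatory subunit and the regulatory subunits moved in opposite directions with shTdp-43-2: Grin1 rose, Grin2a, Grin2d and Grin3a fell, and Grin2b did not pass the test. Thus 4 of the 5 genes were called at a limma adjusted p under 0.05, beside 21.9% of all tested genes. Among all genes, 7.76% were called higher and 14.1% lower in that comparison. With shTdp-43-1 none of the 5 passed, beside 11.1% of all tested genes, although Grin1 and Grin3a had unadjusted p under 0.05 (0.00908 and 0.0318). The median change of all genes was 0.01 on the log2 scale with shTdp-43-1 and -0.01 with shTdp-43-2. Both comparisons use the same 3 shCont arrays, so their values are given side by side and are not independent.

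Grin1, the obligatory subunit, had gene values (mean log2 intensity of its 29 kept probe sets) of 10.56, 10.37 and 10.39 on the shTdp-43-1 arrays, 10.49, 10.52 and 10.33 on the shTdp-43-2 arrays, and 10.19, 10.18 and 10.15 on the shCont arrays. Every array of either Tdp-43 hairpin lay above every shCont array. The Grin1 change was 0.27 ± 0.085 (SE) with shTdp-43-1 (limma adjusted p = 0.0675) and 0.27 ± 0.085 with shTdp-43-2, or 1.21-fold (limma adjusted p = 0.0395). With the median of the probe sets in place of their mean, the shTdp-43-2 change of Grin1 was 0.50 (limma adjusted p = 0.018). The shTdp-43-2 call for Grin1 was fragile: its limma adjusted p was 0.118 without shTdp-43-2 replicate 1, 0.108 without replicate 2, 0.0915, 0.0977 and 0.106 without shCont replicates 1, 2 and 3 in turn, and 0.053 without shTdp-43-1 replicate 3. In the other direction, the shTdp-43-1 change of Grin1 passed with each array centred on its median (0.31, limma adjusted p = 0.0144), and at 0.0493 without shTdp-43-2 replicate 3.

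Grin2a, which encodes the GluN2A subunit of maturing synapses, had gene values of 9.44, 8.92 and 9.24 with shTdp-43-1, 8.91, 9.04 and 8.55 with shTdp-43-2, and 9.48, 9.61 and 9.28 with shCont. The shTdp-43-2 arrays all lay below the shCont arrays, whereas the shTdp-43-1 arrays overlapped them. Grin2a fell to 65.0% of control on the shTdp-43-2 arrays (-0.62 ± 0.15 SE on the log2 scale, limma adjusted p = 0.0128), and 5.07% of all tested genes had a larger change in either direction. With shTdp-43-1 the Grin2a change was -0.26 ± 0.15 (limma adjusted p = 0.292). Without shCont replicate 2 the shTdp-43-2 change was -0.55 and missed the threshold (limma adjusted p = 0.057).

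Grin2b, the GluN2B subunit prominent in embryonic cortex, had gene values of 11.90, 11.42 and 11.81 with shTdp-43-1, 11.62, 11.62 and 11.33 with shTdp-43-2, and 11.48, 11.69 and 11.64 with shCont. Arrays of all 3 groups overlapped. The Grin2b change was 0.11 (95% interval -0.18 to 0.39) with shTdp-43-1 and -0.08 (95% interval -0.36 to 0.20) with shTdp-43-2, so changes within those intervals were not resolved with 3 arrays a group.

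Grin2d, which encodes GluN2D and in the older cortex is best known from interneurons, had gene values of 9.64, 9.35 and 9.26 with shTdp-43-1, 8.90, 8.99 and 8.86 with shTdp-43-2, and 9.57, 9.38 and 9.27 with shCont. The shTdp-43-2 arrays stood apart from both other groups, which overlapped each other. Grin2d fell to 71.1% of control on the shTdp-43-2 arrays (-0.49 ± 0.11 SE, limma adjusted p = 0.0086). With shTdp-43-1 the Grin2d change was 0.01 (95% interval -0.24 to 0.25). When the median of the probe sets replaced their mean, the shTdp-43-2 change of Grin2d was -0.19 and the call was lost (limma adjusted p = 0.353), which the probe set values given further on show in detail.

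Grin3a, the GluN3A subunit, had gene values of 10.42, 10.25 and 10.32 with shTdp-43-1, 10.20, 10.24 and 9.98 with shTdp-43-2, and 10.48, 10.58 and 10.61 with shCont. All 6 arrays of the Tdp-43 hairpins lay below all shCont arrays. Grin3a fell to 75.1% of control on the shTdp-43-2 arrays (-0.41 ± 0.091 SE, limma adjusted p = 0.00712), and its change with shTdp-43-1 was -0.22 ± 0.091 (limma adjusted p = 0.141). Without a brightness filter the shTdp-43-2 change was -0.33 and missed the threshold (limma adjusted p = 0.0658). In that setting 3 more probe sets, with means of at most 5.59, entered the gene value, and their part in the lost call was not tested.

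**Figure D1:**
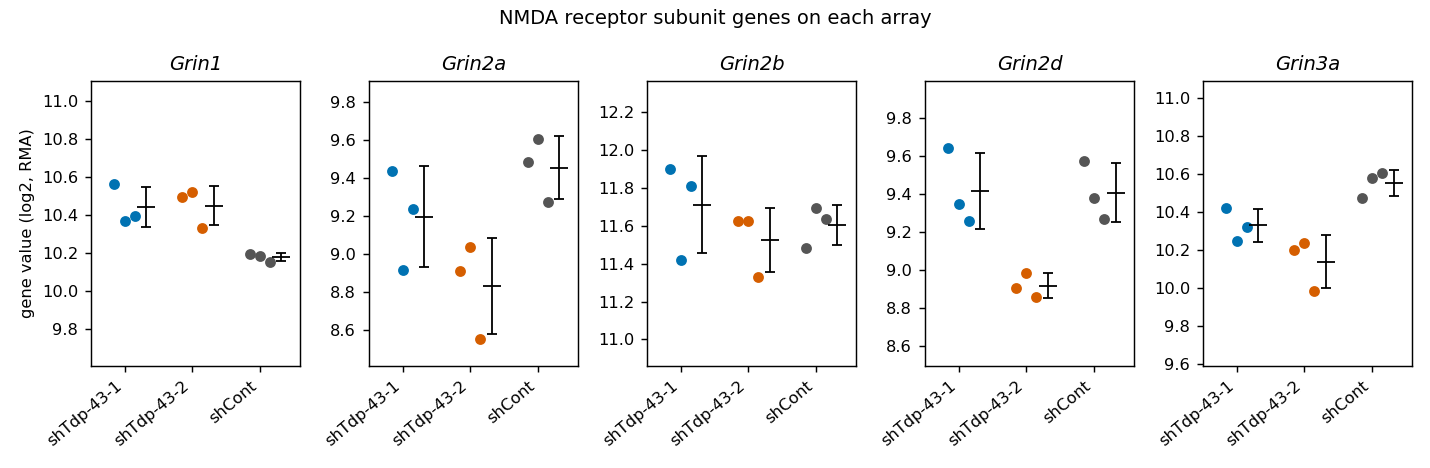
Gene values (log2, y axis) of the 5 NMDA receptor subunit genes on each array, by hairpin; each point is an array and bars give the mean ± SD of 3 arrays. Every y axis spans the same log2 range around the gene's own mean. Grin1 lies above shCont with both Tdp-43 hairpins, Grin3a below it with both, and Grin2d is low only on the shTdp-43-2 arrays.

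Counting arrays that do not overlap gives 1 gene higher and 1 lower of the 5 with shTdp-43-1, beside 35% of all genes in either direction (16.9% higher and 18.1% lower), and 1 higher and 3 lower with shTdp-43-2, beside 38.7% (15.3% higher and 23.4% lower). Non-overlap was thus common among all genes. The array shTdp-43-2 replicate 3 was the lowest of its group for all 5 genes; its median was the lowest of the group over the tested genes (8.75) and the highest of the group over all probe sets (6.09). Once array medians were equalised, the shTdp-43-2 changes were 0.36 for Grin1, -0.54 for Grin2a, -0.41 for Grin2d and -0.33 for Grin3a, and all 4 still passed (limma adjusted p = 0.00387, 0.022, 0.0127 and 0.0111).

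Grin2d was the subunit gene called between the Tdp-43 hairpins. Its value with shTdp-43-2 minus that with shTdp-43-1 was -0.50 ± 0.11 SE on the log2 scale (limma adjusted p = 0.0146), with no overlap of arrays. Grin3a arrays did not overlap between the hairpins either, but its difference missed the threshold. Beside it, 11.5% of all genes were called between the hairpins (7.31% lower), and 16.8% were lower without overlap. Without shTdp-43-2 replicate 1 its adjusted p was 0.0505. The same difference was -0.36 ± 0.15 for Grin2a (limma adjusted p = 0.158), -0.19 ± 0.091 for Grin3a (0.213), -0.19 ± 0.13 for Grin2b (0.418) and 0.01 ± 0.085 for Grin1 (0.978). For these other 4 genes a difference between the hairpins was therefore not shown, even where only shTdp-43-2 passed against shCont.

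**Figure D2:**
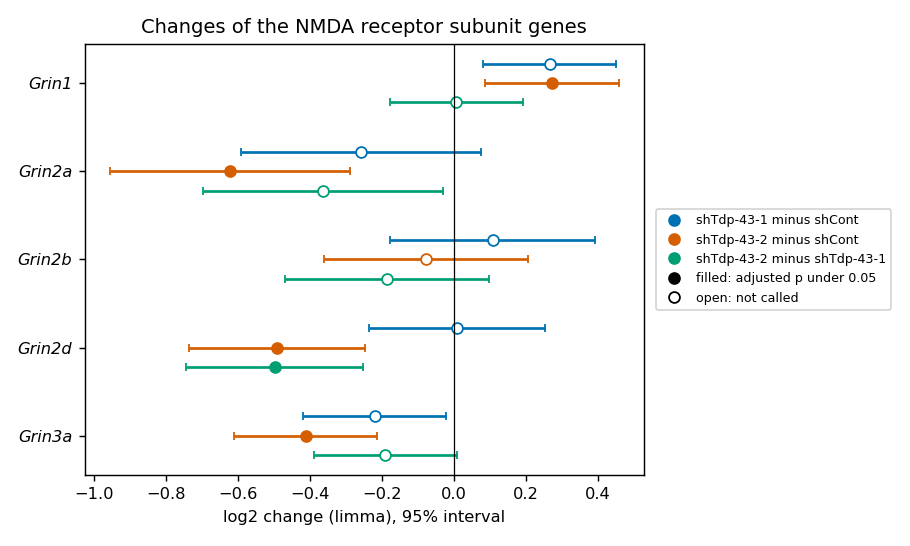
Log2 changes (x axis) of the 5 subunit genes with 95% intervals from limma, for shTdp-43-1 minus shCont, shTdp-43-2 minus shCont, and shTdp-43-2 minus shTdp-43-1. Filled points passed an adjusted p under 0.05: Grin1, Grin2a, Grin2d and Grin3a with shTdp-43-2, and Grin2d between the hairpins.

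Some markers of inhibitory neurons also differed between the hairpins, and these values belong beside those of Grin2d. Of 8 inhibitory markers measured, 2 were called higher and 1 lower with shTdp-43-1, beside 11.1% of all genes called. With shTdp-43-2, 1 was called higher and 3 lower, beside 21.9% of all genes. Between the hairpins 0 were higher and 2 lower, Gad1 and Sst, beside 11.5% of all genes. Averaged, the 8 markers read 10.28 to 10.55 on the shTdp-43-1 arrays, 10.14 to 10.19 on the shTdp-43-2 arrays and 10.27 to 10.49 on the shCont arrays, so only the shTdp-43-2 arrays stood below shCont. Sst, with the largest change of the 8, weighed most on that mean. The median change of the 8 with shTdp-43-2 was -0.14, and those of Gad2 and Slc32a1 were positive (0.65 and 0.15). Gad1, a GABA-synthesising enzyme, had a change of 0.29 with shTdp-43-1 (limma adjusted p = 0.0372) and of -0.32 with shTdp-43-2 (limma adjusted p = 0.0143). Gad2, the other such enzyme, rose with both, by 0.69 and 0.65, and the neuropeptide gene Sst changed by -1.30 with shTdp-43-2. No inhibitory marker was near the dim limit of 6.07. The part of inhibitory neurons in the Grin2d result was not tested.

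Markers of other cells were called with both hairpins, beside 11.1% of all genes with shTdp-43-1 and 21.9% with shTdp-43-2. Of 5 excitatory markers 1 was called higher and 1 lower with shTdp-43-1, and 0 higher and 1 lower with shTdp-43-2. The shTdp-43-2 count was near the share of all genes, and the shTdp-43-1 count was above it. Their list means were 10.19 to 10.45 with shTdp-43-1, 10.01 to 10.17 with shTdp-43-2 and 10.22 to 10.34 with shCont. As in the inhibitory list, only the shTdp-43-2 arrays all lay below shCont. Neurod6, with the largest shTdp-43-2 change of the list (-0.78), weighed most on that mean. Slc17a6 and Tbr1 had changes of -0.27 and -0.29, whereas those of Slc17a7 and Camk2a were positive (0.36 and 0.17). Of 7 astrocyte markers 1 fell with shTdp-43-1 and 3 with shTdp-43-2, and 0 rose with either, with list means of 10.56 to 10.63 with shTdp-43-1, 10.45 to 10.55 with shTdp-43-2 and 10.59 to 10.80 with shCont. Again only the shTdp-43-2 arrays all lay below shCont, so that separation was not particular to the inhibitory list. With shTdp-43-2 the changes of Aqp4, Slc1a2, Gja1 and Aldoc were negative (-0.59, -0.35, -0.36 and -0.18). Those of Gfap, Aldh1l1 and Slc1a3 were positive (0.05, 0.12 and 0.04). Of 5 fibroblast and pericyte markers 2 fell with shTdp-43-1 and 3 with shTdp-43-2, and 0 rose with either. The list means of these were 8.55 to 8.70 with shTdp-43-1, 8.28 to 8.46 with shTdp-43-2 and 8.77 to 8.91 with shCont, below shCont with both hairpins. Dcn, Pdgfrb and Rgs5 had the negative changes. Col1a1 and Col1a2 went the other way, at 0.14 each with either hairpin, uncalled. The part of these cell types in the falls of Grin2a and Grin3a was not tested.

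Receptor composition depends on proportions of subunit proteins, which these arrays do not measure. At the RNA level, subunit genes were also set against each other within each array, where the array's own scaling cancels. Grin2a minus Grin2b was -2.46, -2.50 and -2.57 (log2) on the shTdp-43-1 arrays, -2.71, -2.58 and -2.78 on the shTdp-43-2 arrays, and -2.0, -2.08 and -2.36 on the shCont arrays. All arrays of both Tdp-43 hairpins lay below all shCont arrays, by a difference of means of -0.36 and -0.54. An absolute difference between 2 genes' probe sets has no meaning of its own, and only its change between groups is read here.

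Grin3a minus Grin1 was separated as well, at -0.14, -0.12 and -0.07 with shTdp-43-1, -0.29, -0.28 and -0.35 with shTdp-43-2, and 0.28, 0.40 and 0.45 with shCont. Grin2a minus Grin1 changed by -0.52 with shTdp-43-1 and -0.89 with shTdp-43-2, and Grin2d minus Grin1 by -0.26 and -0.76, again with no overlap. Grin2b minus Grin1 overlapped shCont with shTdp-43-1 (-0.16, exact permutation p = 0.3) and lay below it with shTdp-43-2 (-0.35). The other 9 of these 10 comparisons each gave the smallest two-sided p that an exact permutation test of 3 arrays against 3 allows, 0.1 (Benjamini-Hochberg adjusted 0.111), so none can pass a threshold of 0.05. Since Grin1 itself was high, 53.8% of all genes lay below shCont without overlap when set against Grin1 with shTdp-43-1, and 56.3% with shTdp-43-2. Against Grin2b those shares were 9.62% and 10.7%.

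**Figure D3:**
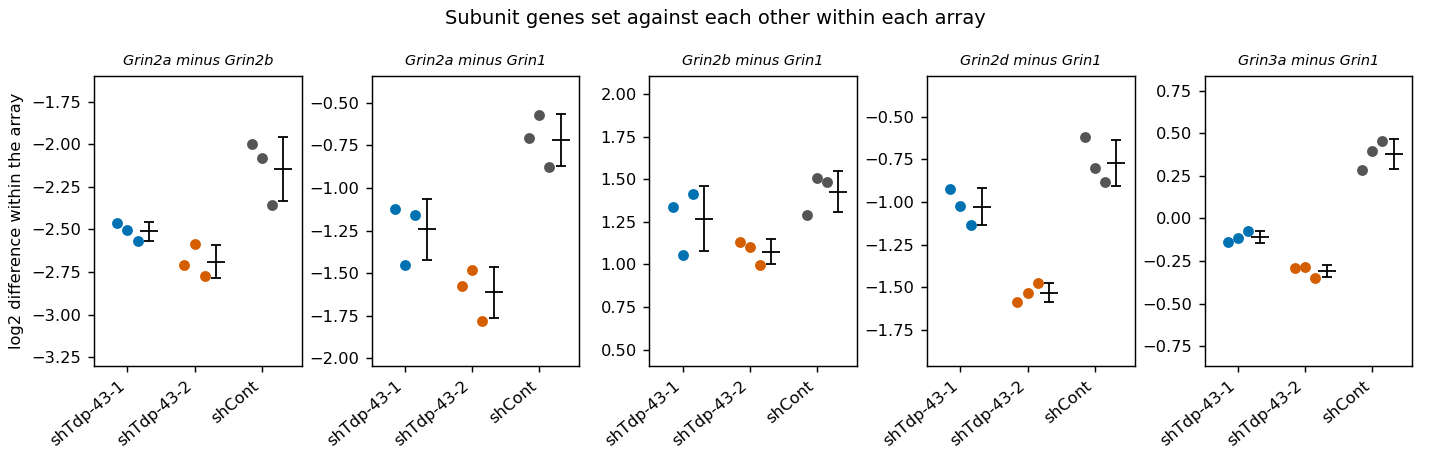
Differences between the log2 gene values of 2 subunit genes within each array (y axis), by hairpin; points are arrays and bars the mean ± SD of 3 arrays. All differences but Grin2b minus Grin1 lie below every shCont array with both Tdp-43 hairpins; Grin2b minus Grin1 overlaps shCont with shTdp-43-1.

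The arrays read a gene through many exons, so each kept probe set can be compared with the gene's own change. For Grin2a all 17 probe sets were lower with shTdp-43-2 (level changes from -1.0 to -0.04, median -0.65), and for Grin3a all 20 were (from -0.80 to -0.03, median -0.47). With shTdp-43-1, 16 of 17 Grin2a and 17 of 20 Grin3a probe sets were lower. For Grin2b 17 of 21 were higher with shTdp-43-1 and 19 of 21 lower with shTdp-43-2, by small amounts. The probe sets of a gene share the same RNA and are not replicates.

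Grin1 differed at its dimmest probe sets. All 15 brighter probe sets were higher with both hairpins, with median level changes of 0.32 and 0.50. Of the 14 dimmer ones, 10 were higher with shTdp-43-1 and 8 with shTdp-43-2, with medians of 0.25 and 0.31. The dimmest behaved otherwise: 5 probe sets (5376796, 5235612, 4423042, 5346495 and 5326384), all among the 6 dimmest of the gene, had lower usage with shTdp-43-2, where usage is the change of a probe set minus that of the rest of its gene. Averaged, these 5 stood at 7.93, 7.78 and 7.74 with shTdp-43-1, 7.59, 7.29 and 7.35 with shTdp-43-2, and 8.0, 7.84 and 7.91 with shCont. The 5 were picked by their usage with shTdp-43-2, so these averages are a description that carries no test. They include 5376796, which averaged 6.0 with shTdp-43-2, under the dim limit, and was kept only through the other groups. Its lower value there gives no support, and the averages were not taken again without it. The other 24 averaged 10.99 ± 0.11 with shTdp-43-1, 11.08 ± 0.12 with shTdp-43-2 and 10.65 ± 0.025 with shCont (SD, n = 3 each).

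Grin2d differed by brightness too. With shTdp-43-2, 13 of its 15 dimmer probe sets were lower (median level change -0.96). Of its 15 brighter ones, 7 were higher and 8 lower (median -0.0075). With shTdp-43-2, 14 of its 30 probe sets were lower by 0.5 or more, 13 stayed within 0.25 of no change and 3 lay between, limits that were chosen after the values were seen. The 14 averaged 9.54, 8.99 and 8.89 with shTdp-43-1, 8.25, 8.55 and 8.09 with shTdp-43-2, and 9.57, 9.28 and 9.12 with shCont, a mean difference of -1.03 for shTdp-43-2. The 13 averaged 9.74, 9.68 and 9.62 with shTdp-43-1, 9.57, 9.42 and 9.66 with shTdp-43-2, and 9.57, 9.49 and 9.38 with shCont. The 14 were thus low on the shTdp-43-2 arrays and the 13 were not, a split made by value that carries no test. Among the 14 is 5213943, which averaged 5.80 with shTdp-43-2, under the dim limit, and was kept only through the other groups. Its lower value there gives no support, and the difference of -1.03 was not taken again without it. Over the 6554 genes with at least 15 kept probe sets, 0.748% had a larger SD of probe set changes with shTdp-43-2 than Grin2d (0.564, against a median of 0.193), and 4.46% a larger one than Grin1 (0.393). The same SD was 0.193 for Grin2a, 0.195 for Grin3a and 0.114 for Grin2b. The SDs of Grin2d and Grin1 include 5213943 and 5376796 in turn, which averaged under the dim limit with shTdp-43-2. Those SDs were not taken again without these probe sets, so their ranks are a description only. Grin2d also had the highest median residual SD of probe sets among the subunit genes (0.207), and its part in the rank was not tested.

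**Figure D4:**
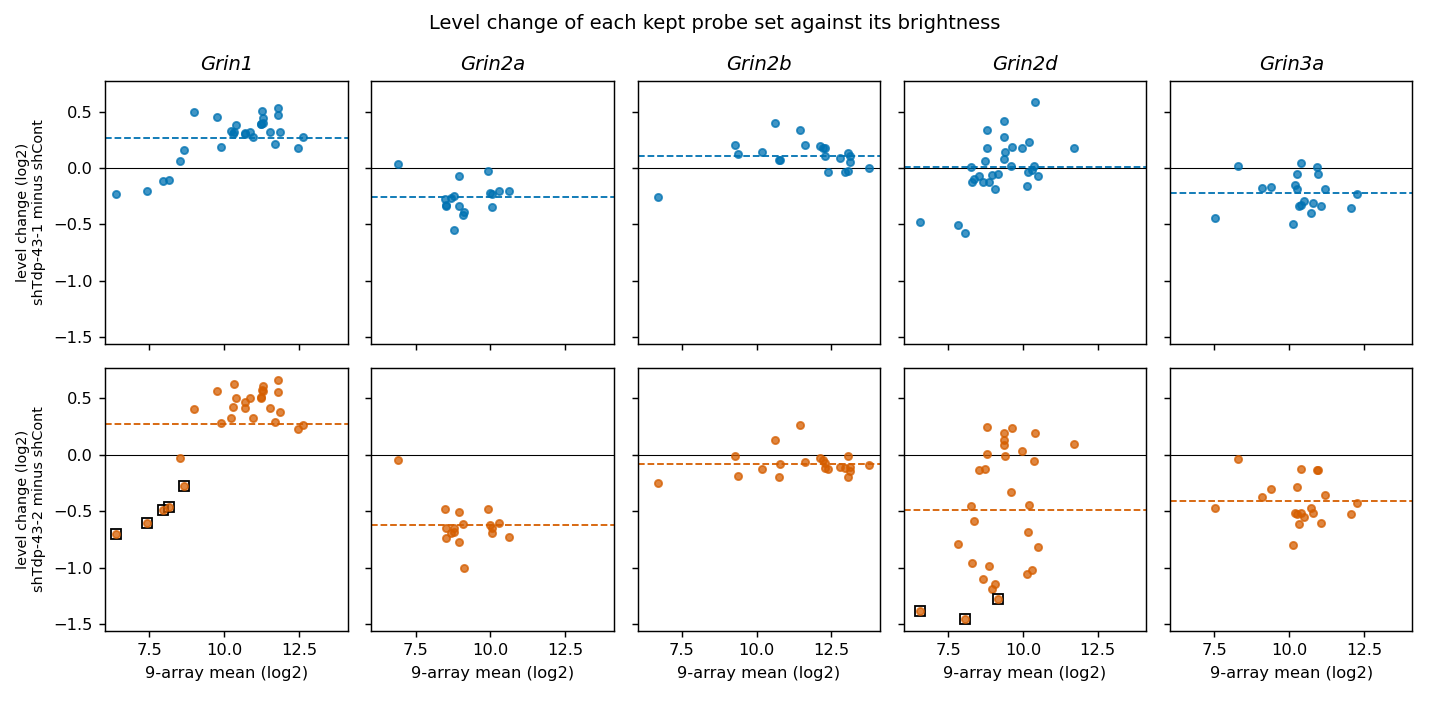
Level change (log2, y axis) of every kept probe set of the 5 genes against its mean over 9 arrays (log2, x axis), for shTdp-43-1 minus shCont (top) and shTdp-43-2 minus shCont (bottom). Dashed lines give the gene's mean change and squares the 8 probe sets with lower usage at a diffSplice adjusted p under 0.05. The dimmest Grin1 probe sets lie below 0 with shTdp-43-2 while the bright ones lie above it, and Grin2d falls into a low set and a set near 0.

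Whether these differences in usage pass a test depended on the test. With limma's diffSplice, 0 of the 117 probe sets were called with shTdp-43-1 (8 had unadjusted p under 0.05), beside 0.494% of all 248701 kept probe sets. With shTdp-43-2, 8 were called, all with lower usage, beside 1.24% of all (0.711% with lower usage): the 5 of Grin1 above, among them 5376796 (usage -1.01, diffSplice adjusted p = 4.34e-06) and 5235612 (-0.91, 5.06e-05), and 5058965, 5213943 and 4652137 of Grin2d (usage -0.99, -0.92 and -0.81, diffSplice adjusted p = 0.00513, 0.0131 and 0.0455). Probe sets 5376796 and 5213943 averaged 6.0 and 5.80 with shTdp-43-2, under the dim limit of 6.07, and were kept only through the other groups (6.47 and 6.71 with shTdp-43-1, 6.70 and 7.18 with shCont), so their lower values with shTdp-43-2 give no support. diffSplice gives all probe sets of a gene the same spread, whereas their residual SD ranged from 0.0755 to 0.363 within Grin1 and from 0.0889 to 0.483 within Grin2d. With each probe set's own spread instead, a test added after the data were seen, 0 of the 117 were called with either hairpin (lowest limma adjusted p = 0.0705 with shTdp-43-2, with 40 at an unadjusted p under 0.05), beside 0.00523% of all probe sets with shTdp-43-1 and 0.151% with shTdp-43-2. Between the hairpins diffSplice called 0 of the 117 (12 had unadjusted p under 0.05), beside 0.44% of all. With shTdp-43-2 the diffSplice count for the 5 genes was 4 without shTdp-43-2 replicate 1, 3 without replicate 3 and 5 without shCont replicate 2. Dim probe sets were called more often among all genes, at 2.81% below a mean of 7 and 0.249% above 12 with shTdp-43-2. The part of brightness in the Grin1 and Grin2d patterns was not tested.

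Single probe sets can be followed in the arrays. Grin1 probe set 5376796 read 6.29, 6.81 and 6.30 with shTdp-43-1, 6.22, 5.60 and 6.17 with shTdp-43-2, and 6.96, 6.46 and 6.67 with shCont. Grin1 probe set 5579913, with the largest positive usage of the gene, read 12.11, 11.74 and 11.99 with shTdp-43-1, 12.04, 12.17 and 12.04 with shTdp-43-2, and 11.46, 11.47 and 11.32 with shCont. Grin2d probe set 4652137 read 9.87, 9.43 and 9.37 with shTdp-43-1, 8.30, 8.51 and 8.17 with shTdp-43-2, and 10.16, 9.54 and 9.12 with shCont. Grin2d probe set 4419445 went the other way, at 10.78, 10.87 and 10.53 with shTdp-43-1, 10.50, 10.19 and 10.30 with shTdp-43-2, and 10.38, 10.20 and 9.84 with shCont. The lowest array of 5376796 was thus 1 of the shTdp-43-2 arrays, and 4652137 was below all other arrays with shTdp-43-2. Of the remaining genes, the probe sets furthest from their gene were 4466409 (usage 0.31 with shTdp-43-1 and 0.61 with shTdp-43-2) and 5345829 (-0.14 and -0.40) of Grin2a, 5253336 (0.24 and 0.36) and 5083710 (-0.38 and -0.17) of Grin2b, and 5437264 (0.26 and 0.40) and 5314363 (-0.28 and -0.40) of Grin3a, none of them called. In the GRCm38.p6 annotation, Grin1 overlaps Lrrc26 and the antisense RNA Grin1os, and Grin3a overlaps Ppp3r2; Grin2d overlaps no gene. Exon positions of the probe sets were not used here.

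Genes that work with the receptor were read from 5 lists of 45 genes, of which 44 were measured. Each list count below stands beside 11.1% of all genes called with shTdp-43-1 and 21.9% with shTdp-43-2 (7.76% higher and 14.1% lower). With shTdp-43-2 the counts for scaffolds and for coagonist supply were near that share. Of the 3 remaining subunit genes, 0 were called with shTdp-43-1 and 1 fell with shTdp-43-2: Grin2c, the GluN2C subunit (-0.44 ± 0.085 SE, limma adjusted p = 0.00352; -0.24 with shTdp-43-1, 0.0996). With a brightness filter at the 75th percentile its shTdp-43-2 change was -0.28 and missed the threshold (limma adjusted p = 0.0508). Grin3b, the GluN3B subunit, and Grina, a receptor-associated protein and no channel subunit, had changes of 0.14 and -0.04 with shTdp-43-2. Over the 3 genes the median changes were 0.05 (shTdp-43-1) and -0.04 (shTdp-43-2).

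Among 12 postsynaptic scaffold genes, 0 were called with shTdp-43-1 and 1 rose and 1 fell with shTdp-43-2. The scaffold that rose was Dlg4, encoding PSD-95 (11.58 ± 0.082 with shTdp-43-1, 11.64 ± 0.11 with shTdp-43-2, 11.34 ± 0.075 with shCont; SD, n = 3 each; change 0.30 with shTdp-43-2, limma adjusted p = 0.028). The scaffold that fell was Dlg3, encoding SAP102, which carries NMDA receptors in immature neurons (9.69 ± 0.10 with shTdp-43-1, 9.51 ± 0.12 with shTdp-43-2, 9.95 ± 0.032 with shCont; change -0.43 with shTdp-43-2, limma adjusted p = 0.00431). The Dlg4 call was lost without shTdp-43-2 replicate 1 or 2 (limma adjusted p = 0.0776 and 0.0878) and without shCont replicate 2 or 3 (0.0679 and 0.102). It was lost as well with a brightness filter at the 25th percentile or none (0.107 and 0.114) and with the median of its probe sets (0.0972). Over the scaffolds the median changes were -0.01 (shTdp-43-1) and 0.06 (shTdp-43-2).

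Of 9 delivery and anchoring genes, 0 were called with shTdp-43-1 and 3 fell with shTdp-43-2, for a median change of -0.20. These were Kif17, a kinesin that carries GluN2B vesicles along dendrites (-0.28 ± 0.086 SE, limma adjusted p = 0.0387), and the adaptors Lin7a (-0.26 ± 0.076, 0.0287) and Lin7c (-0.24 ± 0.070, 0.0286). With shTdp-43-1 their changes were 0.03, -0.06 and -0.01, and between the hairpins Kif17 differed by -0.31 (limma adjusted p = 0.0381). These small changes were close to the threshold: each call was lost without shTdp-43-2 replicate 1 (limma adjusted p = 0.121, 0.115 and 0.102), without shTdp-43-2 replicate 3 (0.0957, 0.0502 and 0.0553), and without shCont replicate 1 (0.124, 0.113 and 0.0805) or replicate 2 (0.128, 0.052 and 0.0661). Lin7a and Lin7c were lost without shCont replicate 3 as well (0.0688 and 0.0876), and Kif17 without shTdp-43-1 replicate 2 (0.0503). With arrays centred on their median the changes were -0.19, -0.18 and -0.16 and none passed.

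Signalling partners held the largest changes among the lists. Of 11 measured, 4 rose and 0 fell with shTdp-43-1 and 2 rose and 2 fell with shTdp-43-2, with median changes of 0.15 and 0.11. Rasgrf1, a Ras exchange factor that binds GluN2B, rose with both hairpins, at 9.87, 9.65 and 9.53 with shTdp-43-1, 10.04, 10.21 and 9.84 with shTdp-43-2, and 7.98, 8.07 and 8.31 with shCont (changes 1.57 and 1.91, limma adjusted p = 0.000106 and 7.13e-06). Ptpn5, the phosphatase STEP that acts on GluN2B, rose by 0.92 and 0.64 (limma adjusted p = 0.000195 and 0.000393). Ptk2b, a kinase upstream of Src, rose with shTdp-43-1 (0.57 ± 0.11 SE, limma adjusted p = 0.00923) and had a change of 0.26 with shTdp-43-2 (limma adjusted p = 0.128).

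Nos1, the neuronal nitric oxide synthase that PSD-95 ties to the receptor, also separated the hairpins. It stood at 9.37, 8.81 and 9.07 with shTdp-43-1, 8.30, 8.44 and 7.98 with shTdp-43-2, and 9.23, 9.28 and 9.05 with shCont, so only the shTdp-43-2 arrays were apart. Nos1 fell by 0.95 on the log2 scale with shTdp-43-2 (limma adjusted p = 0.000945), against a change of -0.10 with shTdp-43-1 (limma adjusted p = 0.664), and the hairpins differed by -0.84 ± 0.15 SE (limma adjusted p = 0.00398). Nos1 is a gene of a subset of inhibitory neurons in the cortex, and the inhibitory marker values given for Grin2d, which went both ways, stand beside it too. The part of inhibitory neurons in the Nos1 result was not tested.

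Coagonist supply showed 1 gene rising of 9 with shTdp-43-1 and 2 with shTdp-43-2, with none falling and list medians of 0.07 and -0.01. Srr, the serine racemase that makes D-serine, rose with both (0.38 ± 0.088 SE, limma adjusted p = 0.0195, and 0.47 ± 0.088, 0.00296). Its shTdp-43-1 call was lost without shTdp-43-1 replicate 1 or 2 (limma adjusted p = 0.053 and 0.0521) and without shCont replicate 1 or 2 (0.0813 and 0.0766). Slc7a10, a transporter of D-serine and glycine, rose with shTdp-43-2 (0.33 ± 0.095 SE, limma adjusted p = 0.0291), which was lost without shTdp-43-2 replicate 1 or 2 (0.0937 and 0.0887) or shCont replicate 2 (0.122).

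**Figure D5:**
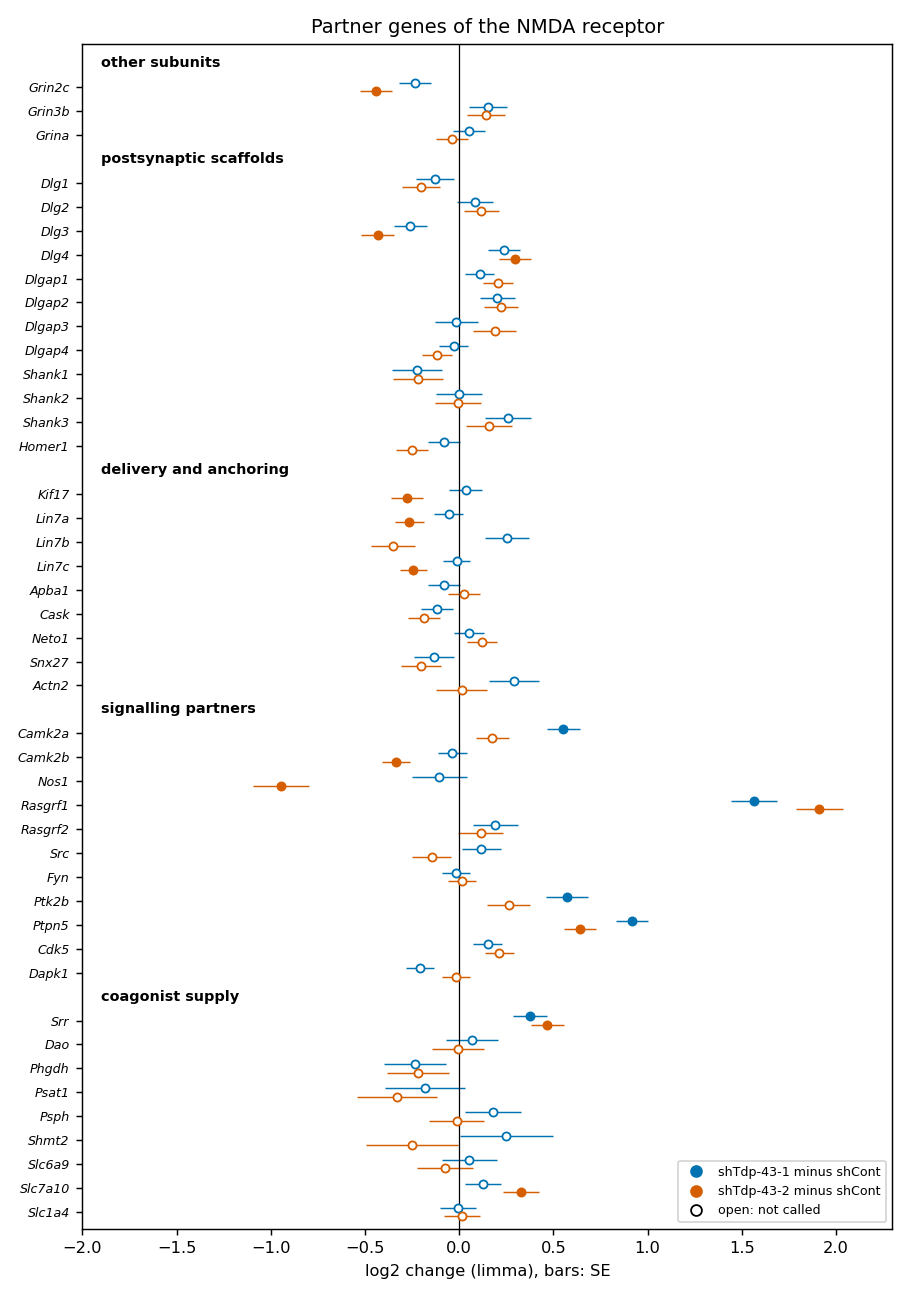
Log2 changes (x axis, bars ± SE) of the 44 measured partner genes by list, for shTdp-43-1 minus shCont and shTdp-43-2 minus shCont; filled points passed a limma adjusted p under 0.05. Rasgrf1 and Ptpn5 are high with both hairpins, and Nos1 is low with shTdp-43-2 alone.

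The genes whose pattern over the 9 arrays was most like that of each subunit were found by the root mean square difference of their values after removing each gene's mean. For Grin1 these were Iqsec1, Grid1 and Mfn2, with differences of 0.0313, 0.0381 and 0.0406 against a median of 0.209 over all genes. For Grin2d they were Fgf11, Fam184b and Cluh (0.0409, 0.0498 and 0.0555, median 0.292), and for Grin3a Mnat1, Cdh2 and Npas3 (0.0354, 0.036 and 0.0381, median 0.232). Grin2a had Ryr2, Camk4 and Asic1 (0.0795, 0.0933 and 0.0943, median 0.343), and Grin2b had Arfgef3, Herc1 and Mest (0.0393, 0.0461 and 0.0655, median 0.231).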

How the data were processed

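Total RNA of 9 samples was hybridised to 9 exon arrays. The table deposited by the authors holds a log2 value for each probe set on each array. It is the exon-level output of RMA from Affymetrix Expression Console, per the labels; the submitters' processing notes give mm9 as the build. The software version is not given in the sources used. RMA forces the arrays to a common distribution, which removes shifts shared by most probes, and compresses dim probe sets.

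Of 1256831 probe sets, 318760 carry 1 gene symbol in the platform annotation, 6684 several and 931387 none; RefSeq (GRCm38.p6) served for names and neighbours only. Probe sets with a 9-array mean of at least the table median of 6.07 were kept. The gene value is the mean log2 value of those naming the gene alone, and genes with at least 3 were tested. The 3 groups were fitted together with limma 3.58.1 in R 4.3.3 (lmFit and eBayes, 6 residual degrees of freedom, Benjamini-Hochberg adjustment over all 16770 genes, threshold 0.05). Probe set usage was tested with diffSplice over 248701 probe sets. Scripts were tested on simulated data. The 3 arrays per group limit the precision.

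Named probe sets are those past the diffSplice threshold and the largest positive and negative usage difference of each gene. Of each partner list up to 4 called genes are named, those called with both hairpins first. The genes and lists were chosen with earlier results of these data known. Lin7b, Camk2a and Camk2b in the closing section were chosen after their values were seen. Replicate numbers were not used to pair the arrays in the main fits. Alternatives were other brightness filters, centring, quantile normalization, the median of the probe sets, a replicate block, array weights, fits of the compared groups alone, and leaving out each array.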

Additional observations from a re-analysis of the deposited data

Results flagged for a closer look

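Grin2d, Kif17 and Nos1 are listed because the direct comparison of the Tdp-43 hairpins found them different. The value with shTdp-43-2 minus that with shTdp-43-1 was -0.50 for Grin2d (limma adjusted p = 0.0146, all 3 shTdp-43-2 arrays below all shTdp-43-1 arrays). For Kif17 it was -0.31 (limma adjusted p = 0.0381), which was lost in 7 of the 9 fits that left out 1 array, all but those without shTdp-43-2 replicate 2 or shCont replicate 3, and for Nos1 -0.84 (limma adjusted p = 0.00398). Tardbp differed between the hairpins by 0.03 (limma adjusted p = 0.956).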

How the results depend on the processing

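With 3 arrays a group, the calls near the threshold moved with the settings. Over 18 alternatives, the shTdp-43-2 calls were kept in 17 for Grin2a, Grin2d and Grin3a and in 10 for Grin1, and the hairpin difference of Grin2d in 16. For Grin1 with shTdp-43-2 the change was 0.26 both with a brightness filter at the 25th percentile and unfiltered (limma adjusted p = 0.0524 and 0.0573), and for Grin3a -0.33 without a filter. For Grin1 with shTdp-43-1 it passed at 0.30 with the filter at the 75th percentile, 0.31 with centring, 0.30 with quantile normalization and 0.24 with array weights, which also carried Grin3a past at -0.24. With the median of the probe sets Grin2d was -0.19 with shTdp-43-2 and -0.36 between the hairpins, neither called. Signs turned for Grin2b with shTdp-43-2 (0.0046 with centring), Grin2d with shTdp-43-1 (-0.0509 with array weights), Kif17 with shTdp-43-1 (-0.0214 with quantile normalization, -0.0105 with array weights), Lin7c with shTdp-43-1 (0.0308 with centring, 0.0135 with quantile normalization) and Dlg4 between the hairpins (-0.0309 with the median of the probe sets), all uncalled values near 0; the cause was not tested. Gene counts of 1865, 3667 and 1934 (shTdp-43-1, shTdp-43-2, hairpin difference) were 1041 for shTdp-43-1 and 1198 for the difference with the median of the probe sets, and 3293 for shTdp-43-1 with array weights. Centring turned the split of higher and lower genes with shTdp-43-1 to 1214 and 884 (865 and 1000 before), with shTdp-43-2 to 2178 and 1717 (1301 and 2366) and between hairpins to 1205 and 1126 (708 and 1226); quantile normalization gave 1793 and 2113 with shTdp-43-2 and 1141 and 1281 between hairpins.

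Probe set counts of 1229 with shTdp-43-1 and 1095 between hairpins were 1993 and 1826 with the 25th percentile filter, 2275 and 2046 with none, 621 and 587 with the 75th, and 1862 and 675 with only the compared groups; array weights gave 3126 with shTdp-43-1. Own spreads gave 13, 375 and 0 for the 3 comparisons and 0 for the 5 genes with shTdp-43-2 (8 before); the 75th percentile filter gave 5 there, and quantile normalization 1 with shTdp-43-1. With the replicate block the probe set counts were 2644, 5035 and 2065, and 13 and 1 for the 5 genes with shTdp-43-2 and between hairpins. Whether the numbers pair the arrays was not settled: 6 of 9 same-numbered pairs had correlated deviations over 0.1, and 5 of 9 arrays matched best with their own number. Correlations ran from -0.38 to 0.59 for same-numbered pairs and from -0.66 to 0.68 for differently numbered ones. The block changed no call of a subunit gene.

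Leaving out each array in turn gave gene counts of 784 to 2224, 2484 to 3894 and 964 to 1926, and probe set counts of 625 to 1630, 1636 to 4768 and 628 to 1515. The gene counts with shTdp-43-1 were 784, 915 and 1212 without shCont replicates 1, 2 and 3 and 1013 and 1048 without shTdp-43-1 replicates 2 and 3, and the gene counts of the hairpin difference were 1227 and 1253 without the same shTdp-43-1 arrays and 964 without shTdp-43-2 replicate 1. For the 5 genes the probe set counts were 0 to 1, 3 to 12 and 0 to 0. Changes ranged with shTdp-43-1 from 0.20 to 0.30 for Grin1 and -0.11 to 0.091 for Grin2d, and with shTdp-43-2 from 0.24 to 0.33 for Grin1, -0.72 to -0.48 for Grin2a and -0.14 to 0.0189 for Grin2b. Between hairpins they ranged from -0.58 to -0.39 for Grin2d and -0.0317 to 0.0675 for Grin1. Kif17 ranged from -0.0264 to 0.0677 and Nos1 from -0.25 to 0.0316 with shTdp-43-1, and usage of probe set 4652137 from -0.24 to 0.14.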

Other observations

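Other partner genes that differed between the hairpins, chosen after their values were seen, were Lin7b, Camk2a and Camk2b. Lin7b, an adaptor of the same family as Lin7a and Lin7c, had changes of 0.26 with shTdp-43-1 and -0.35 with shTdp-43-2, neither of them called, and differed between the hairpins by -0.61 (limma adjusted p = 0.00678). Camk2a, encoding the alpha subunit of the calcium and calmodulin dependent kinase II, rose on the shTdp-43-1 arrays by 0.55 (limma adjusted p = 0.00272), had a change of 0.17 with shTdp-43-2 (0.187) and differed by -0.38 between the hairpins (0.0167). Camk2b, the beta subunit, had a change of -0.04 with shTdp-43-1, fell on the shTdp-43-2 arrays by 0.34 (limma adjusted p = 0.0076) and differed by -0.30 between the hairpins (0.0235).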
